A study of Mus musculus with 35 samples.

Results

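Pioglitazone treatment of male mice made obese by diet was studied in perigonadal adipose tissue, the fat pad around the gonads, with 1 oligonucleotide array per sample. The comparison took the 4 arrays labelled as pioglitazone-treated diet-induced obesity and the 3 labelled as untreated diet-induced obesity, which are 7 of the 35 arrays in the study. Treated males were wild type, 22 weeks old, fed the obesity diet D12451 and given pioglitazone at 10 mg/kg per day for 2 weeks. Untreated obese males were wild type, of the same age and fed the same diet without the drug. The 4 lean males, wild type and untreated, were of the same age. The other arrays compared here were from female obese mice, all 22 weeks old. They were Ay/+ mice, heterozygous for the agouti yellow allele, with (n = 3) and without pioglitazone (n = 4). The others were ob/ob mice, which lack functional leptin, with (n = 3) and without pioglitazone (n = 4). These treated females had the same labelled dose and duration, except that the label of 1 treated Ay/+ sample gives no dose. All these groups were on the C57BL/6J background. The spread behind each p-value was estimated from all 35 arrays in 10 groups. These also hold untreated lean females, untreated ob/ob males and ob/ob females given a β3 adrenergic agonist, all 22 weeks old, which are not compared here. The labels do not say whether a sample came from 1 animal or a pool, so p-values measure the spread between these samples.

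Pioglitazone is a thiazolidinedione, a drug that activates PPAR gamma, a nuclear receptor that pairs with RXR on DNA and drives adipocyte differentiation and the genes of lipid uptake and storage. In white fat of rodents such agonists are also known to induce mitochondrial genes and genes typical of brown fat, the tissue that burns fatty acids to make heat. Obese adipose tissue contains more macrophages than lean tissue and expresses chemokines and acute phase proteins, and thiazolidinediones are known to lower several of these.

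Signals were scaled so that each array had the same trimmed mean of 250, and 23 was added before taking log2. Log2 differences below are therefore of signal plus 23, which understates the change of dim probe sets, and 23 corresponds to the 25th percentile of all scaled signals. A probe set was called at a Benjamini-Hochberg adjusted p below 0.05 in limma over the 12422 probe sets tested. Of 22 adipocyte markers listed, 19 had a probe set, and none of these was below 23 on all 7 arrays. The same held for all 14 measured neutrophil markers, so this check cannot identify the tissue. The correlation of log2 signals ranged from 0.944 to 0.966 among treated arrays, from 0.928 to 0.971 among untreated obese arrays and from 0.898 to 0.960 between the groups. Untreated array 1 stood apart here, at 0.935 and 0.928 with untreated arrays 2 and 3, which correlated with each other at 0.971. In a fit with weights per array it had the lowest weight of the 7, 0.37, against 0.561 for treated array 1. Treated array 1 stood apart in RNA quality: its Gapdh 3′ to 5′ ratio was 46.9, against at most 1.17 on the other treated arrays and 0.907 to 1.16 on the untreated obese arrays, and the part of this in the results was not tested beyond leaving the array out. By the form of the experiment file and the scaling, treated arrays 1, 2 and 4 and untreated array 3 were later, and treated array 3 and untreated arrays 1 and 2 earlier. Within the later and within the earlier arrays, the probe sets called higher over all 7 arrays had medians of 1.10 and 1.16 and those called lower -1.35 and -1.19; being chosen on these same arrays, they are no independent check of the batch.

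Pioglitazone changed 176 probe sets, 1.42% of those tested: 94 were higher (0.757%) and 82 lower (0.66%) in treated than in untreated obese males. These named 83 higher and 70 lower genes, while 8 higher and 10 lower probe sets had no symbol or several. The median log2 difference was 1.16 among the higher and -1.34 among the lower probe sets, beside -0.08 over all tested. The treated and untreated arrays did not overlap for 173 of the 176, and they did not overlap for 11.4% of all probe sets tested; the 3 that overlapped were Noct, Grpel1 and Vasp, named after their values were seen. Without treated array 1, 155 probe sets were called, 90 higher and 65 lower. Among the 7 fits that left out 1 array, the count was lowest without untreated array 2, at 111, with 69 higher and 42 lower.

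**Figure D1:**
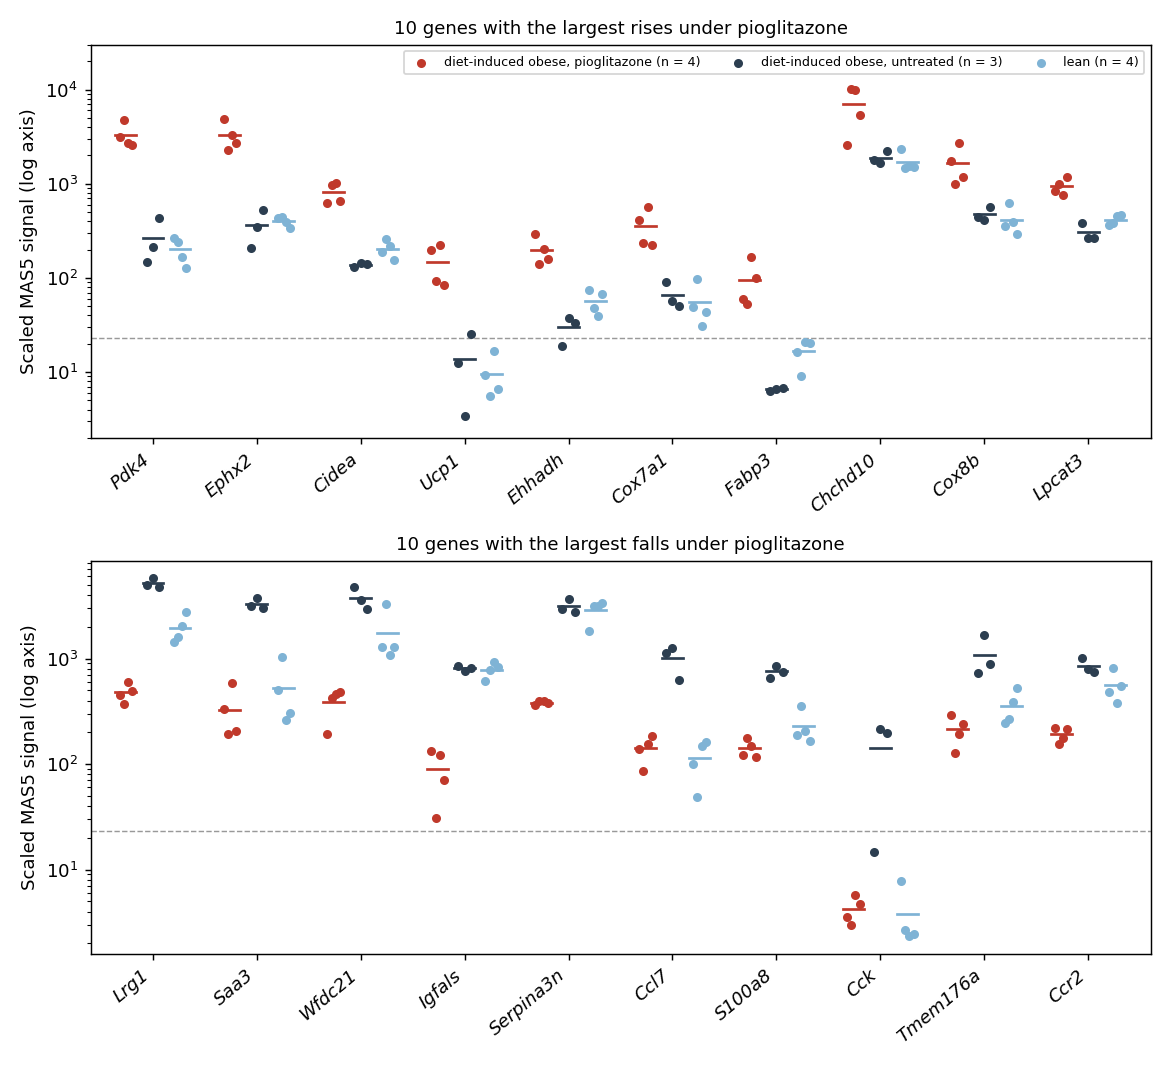
Scaled signal (log axis) of the 10 genes that rose most and the 10 that fell most in treated diet-induced obese males (n = 4), with untreated diet-induced obese (n = 3) and lean males (n = 4). Points are arrays, short lines are group means and the dashed line is the added value of 23; genes were taken only where the treated and untreated obese arrays do not overlap.

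Pdk4, a kinase that inactivates pyruvate dehydrogenase and so spares glucose, rose most. Its signal was 3146, 4715, 2676 and 2556 in treated males, against 148, 212 and 431 in untreated obese males. The lowest treated array was far above the highest untreated one, and the lean mean of 202 ± 64.2 (SD, n = 4) lay among the untreated values. The log2 difference was 3.60 with a standard error of 0.40 (limma adjusted p = 2.74e-07). Ephx2, which encodes the soluble epoxide hydrolase that opens fatty acid epoxides, was next. It had 4918, 2260, 3271 and 2698 in treated males, against 210.2, 351 and 523 in untreated obese males, again without overlap. The log2 difference was 3.13 with a standard error of 0.33 (limma adjusted p = 1.27e-07).

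Among genes typical of brown fat, 7 of 14 measured members were higher, Pdk4 among them, and none lower, with a median log2 difference of 0.98, beside 0.757% higher and a median of -0.08 over all probe sets tested. Cidea, a lipid droplet protein abundant in brown fat, had 632, 967, 1030 and 654 in treated males, against 131, 143 and 141 in untreated obese males. All treated arrays lay well above the untreated ones, and the log2 difference was 2.36 (standard error 0.39, limma adjusted p = 0.000332). Ucp1, the uncoupling protein that dissipates the mitochondrial proton gradient as heat, had 197, 92.5, 221 and 83.6 in treated males, against 12.5, 3.40 and 25.2 in untreated obese males and a lean mean of 9.50 ± 5.03 (SD, n = 4). The groups did not overlap, but the untreated values were near or below 23, and the log2 difference was 2.17 with a standard error of 0.56 (limma adjusted p = 0.0347). That call was lost without any 1 of the untreated arrays and without treated array 1 or 3 and over 21 alternatives the limma adjusted p ranged between 0.0054 and 0.278. A dimmer Ucp1 probe set gave 0.73 (limma adjusted p = 0.649).

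Cox7a1 and Cox8b encode forms of cytochrome c oxidase subunits found in heart, muscle and brown fat. Cox7a1 rose by 2.04 in log2 (limma adjusted p = 0.0021), with 413, 235, 565 and 224 in treated males, against 91.5, 56.8 and 49.8 in untreated obese males. Cox8b rose by 1.65 (limma adjusted p = 0.0021), while a second Cox8b probe set gave 1.05 (limma adjusted p = 0.113). Fabp3, the fatty acid binding protein of heart, was at 59.5, 52.3, 165 and 100.2 in treated males, against 6.23, 6.64 and 6.85 in untreated obese males. The untreated values were all below 23, so the log2 difference of 1.89 (limma adjusted p = 0.00582) depends on the value added. Slc25a20, the carnitine carrier of the mitochondrial membrane, rose by 1.02 (limma adjusted p = 0.0215). Other genes linked to heat production were not called. Ppargc1a, a coactivator of mitochondrial genes, averaged 10.1 ± 5.10 (SD, n = 4) in treated and 10.4 ± 9.48 (SD, n = 3) in untreated obese males, below 23 in both. Dio2, which activates thyroid hormone, gave -0.14 (limma adjusted p = 0.953). Skeletal muscle also expresses several of these oxidase subunits. None of the 25 muscle markers measured was called, beside 1.42% of all probe sets tested, a share at which 25 genes may well hold none. Their summed signal was 2690 to 3913 in treated and 2949 to 4055 in untreated obese males. Of the 25 markers, 10 had a positive and 15 a negative difference. The most positive was Myl1, at 0.74 without overlap of the arrays (limma adjusted p = 0.169). Myl4, which is not in that list, rose by 1.31 (limma adjusted p = 0.00156). The part of muscle in these rises was not tested.

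Among the enzymes that break down fatty acids in mitochondria, 9 of 18 measured members were higher and none lower, with a median of 0.86. This stood beside 0.757% higher and a median of -0.08 over all probe sets tested. Acadl, which starts the oxidation of long-chain acyl-CoA, had 977, 675, 907 and 760 in treated males, against 235, 309 and 341 in untreated obese males. The treated arrays were all above the untreated ones, by 1.42 in log2 (standard error 0.27, limma adjusted p = 0.00156). Hadh and Hadhb, which carry out later steps of the same cycle, rose by 1.38 (limma adjusted p = 0.000803) and 1.26 (limma adjusted p = 0.0075). Cpt2, which rebuilds acyl-CoA inside the mitochondrion, rose by 1.14 (limma adjusted p = 0.00413). Decr1, Eci1, Etfa and Etfdh were also higher, at 0.76 to 1.38. The remaining called member was Slc25a20, which is counted among the brown fat genes as well. Untreated array 1 had the lowest values of Acadl, Hadh, Hadhb, Cpt2 and Etfdh among all 7 arrays, and without it 3 of the 18 members were called, all higher. The calls of Hadhb and Etfdh were among those lost, and that of Etfdh was also lost without untreated array 2 or treated array 1.

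Peroxisomes shorten very long fatty acids, and many of their genes are known PPAR targets. Here 7 of 16 measured members were higher, none lower, and the median was 0.76, beside 0.757% and -0.08 over all probe sets. Ehhadh, the peroxisomal bifunctional enzyme, had 290, 142, 205 and 160 in treated males, against 18.7, 37.5 and 33.6 in untreated obese males. Every treated array was several times higher than every untreated one, with a log2 difference of 2.04 (standard error 0.28, limma adjusted p = 1.65e-05). Acaa1b, the peroxisomal thiolase, rose by 1.51 (limma adjusted p = 0.000154), and a dimmer Acaa1b probe set gave 0.05. Abcd3, a transporter of the peroxisomal membrane, rose by 1.39 (limma adjusted p = 0.000152). Hsd17b4, Pex19, Eci2 and Cat, which encodes catalase, rose by 1.04 to 1.35. The call of Cat was lost without treated array 1, which carried its highest value, or without untreated array 1. A dimmer Cat probe set gave 0.01 (limma adjusted p = 0.996).

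In the TCA cycle list 7 of 24 measured members were higher, none lower, and the median was 0.70. Over all probe sets 0.757% were higher and the median was -0.08. Sucla2, a subunit of succinyl-CoA synthetase, had 2700, 3003, 3019 and 2446 in treated males, against 1100, 1172 and 1068 in untreated obese males. Neither group varied much, and the log2 difference was 1.30 (standard error 0.19, limma adjusted p = 3.48e-05). A dimmer Sucla2 probe set gave 0.63 (limma adjusted p = 0.609). Sdha, the flavoprotein of succinate dehydrogenase, rose by 1.31 (limma adjusted p = 0.0132), a call lost without untreated array 1 or treated array 1. Dlst, Dlat and Dld, components of the ketoacid dehydrogenase complexes, rose by 1.36, 1.15 and 1.14. Dimmer probe sets of Dlst and Dlat gave 0.05 and -0.20 (limma adjusted p = 0.985 and 0.935). In the oxidative phosphorylation list 10 of 58 measured members were higher, none lower, and the median was 0.62. These were Cycs, which encodes cytochrome c and rose by 1.15 (limma adjusted p = 0.0021), 6 subunits of complex I, 2 of complex III and Cox5b of complex IV, at 0.74 to 1.06. Without untreated array 1, 3 TCA cycle members were called. Without untreated array 3, 2 oxidative phosphorylation members were called, and 5 or 6 without untreated array 2, treated array 3 or treated array 4.

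Promoters of all called genes, not only the oxidative ones, were searched for the motif of nuclear respiratory factor 1, GCGCANGCGC. That factor is known to act on many genes of the respiratory chain. The search covered both strands of the RefSeq promoter windows of assembly GRCm38.p6, which run from 250 bases before to 50 bases after each gene's start. It was chosen after the called genes were known. The motif was in 11 of 67 promoters of higher genes (16.4%) and in 2 of 53 of lower genes (3.77%), with 16 higher and 17 lower genes absent from the table. It was in 5.19% of all 27025 promoters and in 9.96% of the 6576 promoters of genes on the array. Stretches of 60 bases are shown for Sdha (chr13:74350304-74350363, minus strand), Sucla2 (chr14:73552744-73552803, plus strand) and Etfdh (chr3:79628861-79628920, minus strand) because all 3 were called higher, and capitals mark the motif, which in Sucla2 is read on the opposite strand.
Sdha: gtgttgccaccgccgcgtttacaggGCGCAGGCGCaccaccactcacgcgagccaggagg
Sucla2: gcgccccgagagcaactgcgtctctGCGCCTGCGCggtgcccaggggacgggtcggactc
Etfdh: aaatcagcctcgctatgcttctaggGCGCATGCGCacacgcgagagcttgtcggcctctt
The motif begins 98 bases upstream of the start of Sdha, 17 upstream of Sucla2 and 128 upstream of Etfdh. A perfect direct repeat AGGTCANAGGTCA, the form of site that PPAR and RXR are known to bind, was in none of the 67 promoters of higher genes and in 0.0481% of all promoters. These are matches of letters in a short window and not sites of binding.

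**Figure D2:**
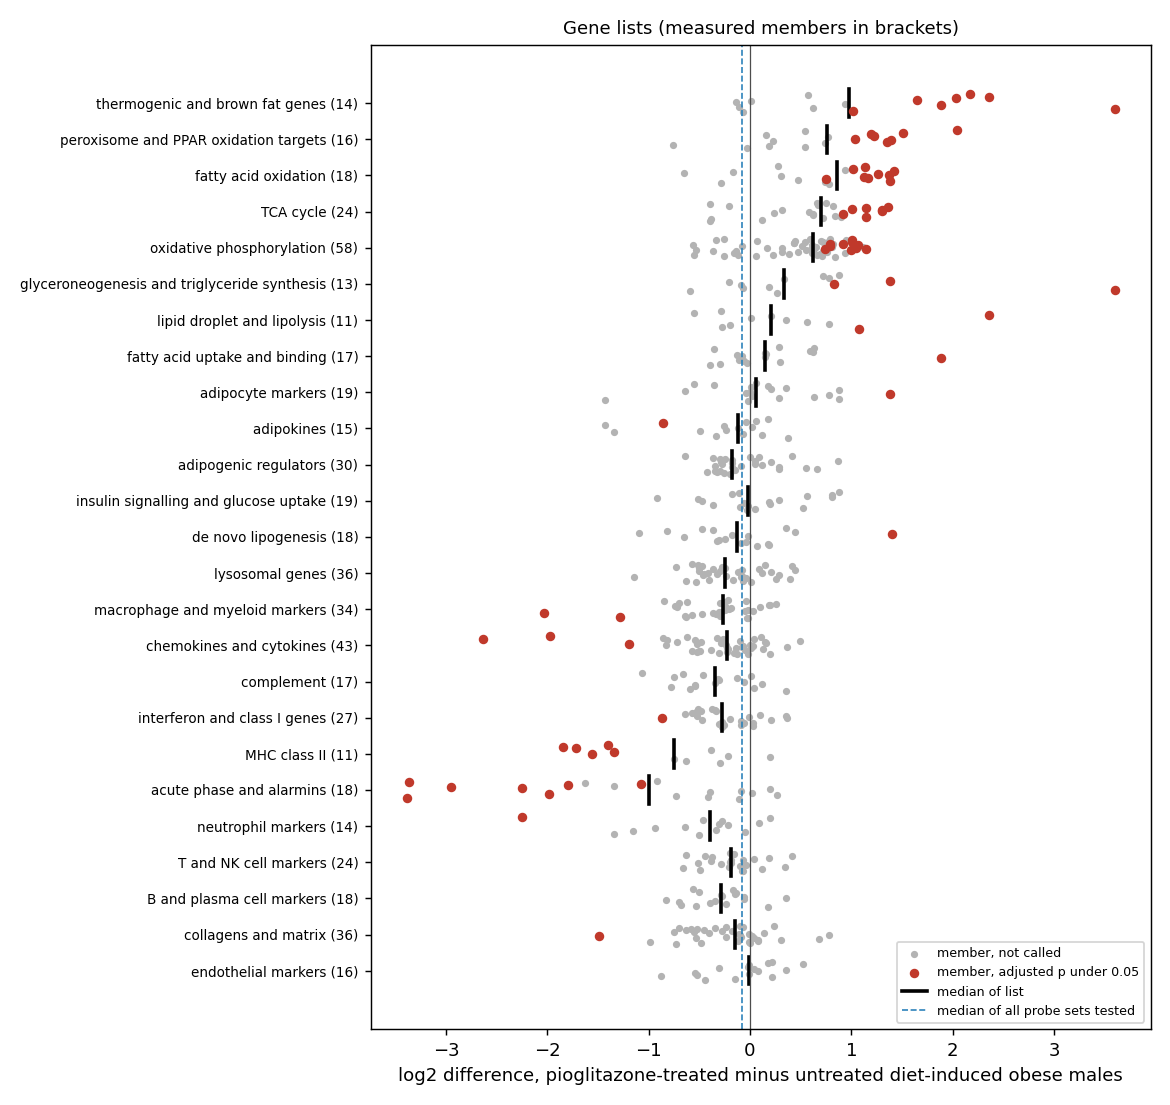
Log2 difference, treated minus untreated diet-induced obese males, of the measured members of 25 gene lists. Red points were called at an adjusted p below 0.05, grey points were not, black lines are list medians and the dashed line is the median of all probe sets tested; called members lie to the right in the oxidative lists and to the left in the acute phase, chemokine and MHC class II lists.

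Genes of triglyceride synthesis and storage are the classical response to PPAR gamma agonists in cultured adipocytes. The counts below stand beside 0.757% called higher over all probe sets tested. In the list of glyceroneogenesis and triglyceride synthesis 3 of 13 measured members were higher: Pdk4, Aqp7 and Agpat3, the last not without untreated array 3. Aqp7, the channel by which adipocytes exchange glycerol, had 1021, 893, 1070 and 698 in treated males, against 281, 343 and 385 in untreated obese males. All treated arrays were higher, by 1.39 in log2 (standard error 0.28, limma adjusted p = 0.00328). Pck1, the key enzyme of glyceroneogenesis, had 693, 789, 755 and 552 in treated males, against 428, 333 and 344 in untreated obese males. Although the arrays did not overlap, its log2 difference of 0.88 was not called (limma adjusted p = 0.118). Of 2 Gpd1 probe sets, the dimmer was called at 1.28 (limma adjusted p = 0.00582) and the brighter was not, at 0.78 (limma adjusted p = 0.587). Cidea and Ces1d, a carboxylesterase that hydrolyses triglyceride, were the 2 of 11 lipid droplet genes called. Fabp3 was the 1 of 17 genes of fatty acid uptake called; Lpl gave 0.28 and Cd36 0.64 (limma adjusted p = 0.853 and 0.211). A second, dimmer Lpl probe set gave -0.32 (limma adjusted p = 0.811). In de novo lipogenesis 1 of 18 was called, Me1, the malic enzyme that supplies NADPH, at 1.40 (limma adjusted p = 0.000867).

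The receptor of the drug was not among the genes called. Of all probe sets tested, 1.42% were called. Pparg had 248, 297, 258 and 219.7 in treated males, against 351, 452 and 432 in untreated obese males and a lean mean of 836 ± 42.9 (SD, n = 4). The treated arrays were all below the untreated ones, but the log2 difference of -0.64 (95% interval -1.14 to -0.14) was not called (limma adjusted p = 0.265). Against lean males Pparg differed by -1.63 in treated males (limma adjusted p = 6.78e-06) and by -0.99 in untreated obese males (limma adjusted p = 0.0232). None of the 30 adipogenic regulators and none of the 19 genes of insulin signalling and glucose uptake was called. Slc2a4, the insulin-regulated glucose transporter, averaged 450.4 ± 89.8 (SD, n = 4) in treated and 232 ± 23.4 (SD, n = 3) in untreated obese males, with a log2 difference of 0.88 (limma adjusted p = 0.145). Irs3, an adaptor of the insulin receptor, gave 0.81 (limma adjusted p = 0.0782). Of 15 adipokines only Rbp4, the retinol binding protein, was called: it fell by 0.86 (limma adjusted p = 0.0233), with 2084 to 2359 in treated and 3075 to 5224 in untreated obese males. The call of Rbp4 held in 13 of 21 alternatives, with -0.46 on later and -1.12 on earlier arrays, and was lost without untreated array 1 or 2 or treated array 3 or 4. The log2 difference of Adipoq, the gene of adiponectin, was 0.06 (95% interval -0.61 to 0.73), that of Lep 0.18 (-0.44 to 0.81) and that of Retn -0.04 (-0.66 to 0.58), and the arrays overlapped in all 3. A second, dimmer Lep probe set gave -0.52 (limma adjusted p = 0.622). Of 19 adipocyte markers only Aqp7 was called, and the median was 0.06. Cfd, Gyk, Acsl1 and Cd163, which were to be described, had no probe set with that single symbol.

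Genes outside those lists rose as well. Lpcat3, which incorporates polyunsaturated fatty acids into phospholipids, had 842, 1001, 752 and 1183 in treated males, against 381, 269 and 262 in untreated obese males, a rise of 1.56 (limma adjusted p = 8.06e-05). Cyp4b1, a cytochrome P450, rose by 1.51 (limma adjusted p = 2.04e-05). Chchd10, a protein of the mitochondrial intermembrane space, rose by 1.70 (limma adjusted p = 0.00387). It had 2603, 10111, 9869 and 5357 in treated males, against 1776, 1672 and 2204 in untreated obese males, so the treated values were spread widely and that of array 1 was the lowest. Ces1d rose by 1.08 and 1.10 on its 2 probe sets (limma adjusted p = 0.0384 and 0.0184). The brighter of them was called in 8 of 21 alternatives, and not without any 1 of the untreated arrays or treated array 2, 3 or 4.

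**Figure D3:**
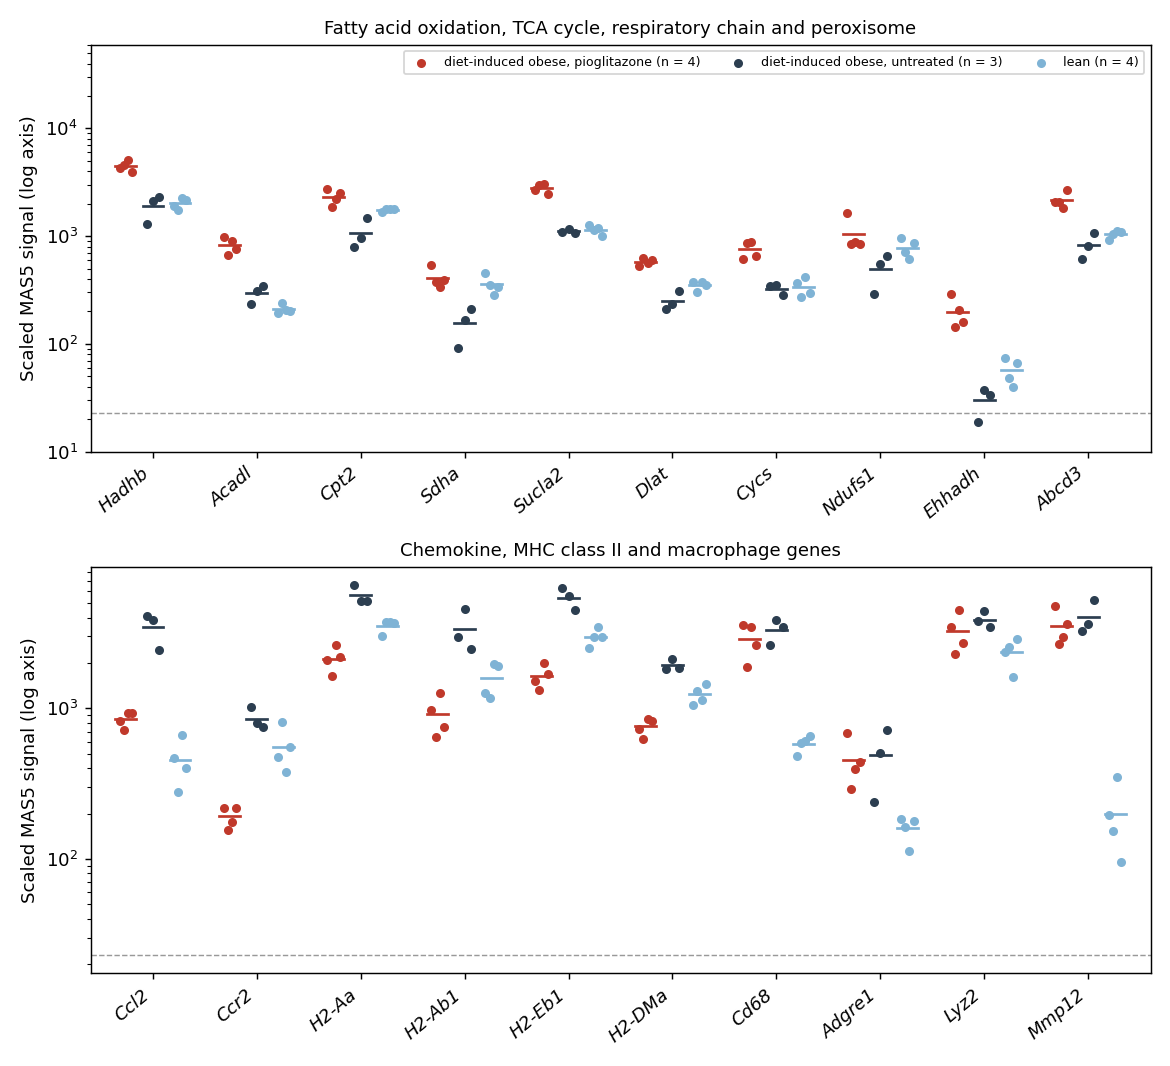
Scaled signal (log axis) of 10 oxidative genes and 10 chemokine, MHC class II and macrophage genes in treated diet-induced obese (n = 4), untreated diet-induced obese (n = 3) and lean males (n = 4). Points are arrays, short lines are means and the dashed line is 23; Ccl2, Ccr2 and the H2 genes are lower in treated than in untreated obese males, while Cd68, Adgre1, Lyz2 and Mmp12 overlap between them.

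Among the genes that fell, acute phase proteins led. In that list 7 of 18 measured members were lower, none higher, and the median was -0.99. Over all probe sets 0.66% were lower and the median was -0.08. Lrg1, a secreted glycoprotein induced in inflammation, had 456, 367, 602 and 492 in treated males, against 5026, 5748 and 4756 in untreated obese males. Every treated array was far below every untreated one and also below the lean range of 1446 to 2735, and the log2 difference was -3.39 (standard error 0.37, limma adjusted p = 2.5e-07). Saa3, the serum amyloid A made in fat, had 329, 191, 585 and 204 in treated males, against 3126, 3721 and 3020 in untreated obese males and 263 to 1024 in lean males. Here the treated arrays overlapped with the lean ones, and the log2 difference from untreated obese males was -3.37 (standard error 0.41, limma adjusted p = 2.32e-06). Serpina3n, a serine protease inhibitor, had 360, 394, 398 and 377 in treated males, against 2935, 3690 and 2779 in untreated obese males. It fell by 2.95 (standard error 0.22, limma adjusted p = 4.18e-11), the smallest p-value among the genes named here. Lbp, which binds bacterial lipopolysaccharide, fell by 1.98 (limma adjusted p = 1.14e-08), and Orm2 and Orm1, the orosomucoids, by 1.80 and 1.07. Hp, haptoglobin, gave -1.63 and was not called (limma adjusted p = 0.266), with 11487 in untreated array 1 against 3892 and 4992 in the other untreated arrays.

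S100a8, a subunit of the alarmin calprotectin, had 123, 177, 149 and 116 in treated males, against 660, 857 and 745 in untreated obese males. It fell by 2.25 (standard error 0.25, limma adjusted p = 2.5e-07), while its partner S100a9 gave 0.19 (limma adjusted p = 0.916) at signals around 23. S100a8 also marks neutrophils, and it was the 1 called of 14 neutrophil markers, beside 0.66% called lower over all probe sets. The 13 not called gave -1.34 to 0.19. The summed signal of the 14 was 602 to 965 in treated and 1577 to 2138 in untreated obese males. That sum includes S100a8 itself, so it is no separate sign of neutrophils. The part of neutrophil number in this result was not tested.

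Ccl2 and Ccl7, chemokines that recruit monocytes, fell, as did their receptor Ccr2. Ccl2 had 829, 719, 927 and 928 in treated males, against 4114, 3870 and 2425 in untreated obese males, with no overlap. The log2 difference was -1.97 (standard error 0.32, limma adjusted p = 0.000323). Ccl7 had 139.9, 85.4, 156 and 185 in treated males, against 1138, 1272 and 630 in untreated obese males, and fell by 2.63 (limma adjusted p = 1.37e-05). Ccr2, the receptor for both, had 217, 155, 175 and 217 in treated males, against 1014, 796 and 748 in untreated obese males. It fell by 2.03 (standard error 0.30, limma adjusted p = 7.62e-05). Cxcl10, an interferon-induced chemokine, fell by 1.19 (limma adjusted p = 0.0201), with treated values all below 23. That call held in 10 of 20 alternatives and was lost with quantile normalization and without any 1 of the untreated arrays or treated array 2 or 3. The other 40 of 43 measured chemokine and cytokine genes were not called, and the median was -0.23. For all probe sets the share called lower was 0.66% and the median -0.08.

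Genes of MHC class II, which present antigen to helper T cells and are expressed by macrophages, dendritic cells and B cells, fell in 5 of 11 measured members. The median was -0.75 and no member was higher, beside 0.66% called lower and a median of -0.08 over all probe sets. H2-Ab1 had 976, 647, 1266 and 749 in treated males, against 2988, 4577 and 2460 in untreated obese males. H2-Eb1 had 1529, 1330, 1987 and 1686 in treated males, against 6286, 5549 and 4466 in untreated obese males. In both genes the arrays did not overlap, and the log2 differences were -1.85 and -1.72 (limma adjusted p = 0.00582 and 0.00419). H2-DMb1 and H2-DMa, which load peptide onto class II molecules, fell by 1.56 and 1.34 (limma adjusted p = 0.011 and 0.000194), and H2-Aa by 1.40 (limma adjusted p = 0.00846). Cd74, the invariant chain, gave -0.63 (limma adjusted p = 0.45). Without untreated array 2, 3 of the 11 were called, H2-Ab1 and H2-DMb1 being lost; H2-DMb1 was also lost without untreated array 3 and H2-Aa without untreated array 1.

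Class II promoters are known to share a Y box, bound by NF-Y, close to the start of transcription. The letters TGATTGG on either strand were in 6 of the 7 measured class II genes whose promoter was in the table (85.7%), and in 3 of the 4 lower ones (75%). They were also in 9% of all promoters, in 11.3% of those of genes on the array, in 13 of 67 higher genes (19.4%) and in 10 of 53 lower genes (18.9%). Windows of 75 bases of the same assembly are shown for the 3 lower genes that hold the motif, H2-Aa (chr17:34287849-34287923, minus strand), H2-Eb1 (chr17:34305756-34305830, plus strand) and H2-DMb1 (chr17:34153078-34153152, plus strand), with the motif in capitals.
H2-Aa: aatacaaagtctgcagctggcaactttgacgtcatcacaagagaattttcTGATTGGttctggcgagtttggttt
H2-Eb1: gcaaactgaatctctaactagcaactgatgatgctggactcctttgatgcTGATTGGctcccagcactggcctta
H2-DMb1: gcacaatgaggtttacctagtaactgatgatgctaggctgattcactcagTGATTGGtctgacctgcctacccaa
The motif begins 50, 61 and 63 bases upstream of the start of H2-Aa, H2-Eb1 and H2-DMb1. A match describes these letters only, and this search too was chosen after the called genes were known.

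Of 34 measured macrophage and myeloid markers, 2 were lower, Ccr2 and Coro1a, a coat protein of leukocyte actin that fell by 1.28 (limma adjusted p = 0.00669), and none was higher, beside 0.66% called lower over all probe sets. Of the 34, 29 had a negative and 5 a positive difference, the median was -0.27 beside -0.08 over all, and the summed signal was 31988 to 43728 in treated, 41509 to 49787 in untreated obese and 13679 to 16580 in lean males. Cd68, a lysosomal marker of macrophages, had 3589, 1887, 3463 and 2640 in treated males, against 2621, 3845 and 3479 in untreated obese males and 479 to 656 in lean males. The treated and untreated obese arrays overlapped, with a log2 difference of -0.22 (95% interval -0.83 to 0.39, limma adjusted p = 0.893). Mmp12, macrophage elastase, averaged 3517 ± 931 (SD, n = 4) in treated and 4047 ± 1047 (SD, n = 3) in untreated obese males, against 198 ± 108 (SD, n = 4) in lean males. Its log2 difference between the obese groups was -0.21 (95% interval -1.25 to 0.84, limma adjusted p = 0.947). Adgre1, the F4/80 antigen, gave -0.04 (limma adjusted p = 0.987). None of 9 measured genes of alternative activation was called: Arg1, arginase, gave 1.09 (limma adjusted p = 0.131) and Chil3 -0.77 (limma adjusted p = 0.5). In whole tissue, fewer cells of a type and less RNA per cell cannot be told apart.

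Other immune and stromal lists held few calls, beside 0.66% called lower over all probe sets. Irf8, a transcription factor of myeloid cells, was the 1 of 27 interferon and class I genes called, and it was called in 7 of 21 alternatives, and not without any 1 of the untreated arrays or treated array 2, 3 or 4. None of 24 T and NK cell markers or of 18 B and plasma cell markers was called, with medians of -0.19 and -0.28. A second, dimmer Ighm probe set was called lower, with 3.50, 5.04, 2.13 and 3.56 in treated males against 12.5, 24.5 and 603 in untreated obese males, so that untreated array 3 set its difference. None of 16 endothelial markers as described, 13 preadipocyte and fibroblast markers, 8 mesothelial markers, 17 complement genes, 36 lysosomal genes and 40 cell cycle genes was called, although a dimmer Emcn probe set was (-1.28, limma adjusted p = 0.0307). In the matrix list Nid2, a basement membrane protein, was the 1 of 36 called and fell by 1.49 (limma adjusted p = 0.00157).

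Several of the deepest falls were in secreted or membrane proteins outside the immune lists. Igfals, the subunit that stabilises insulin-like growth factors in blood, had 133, 30.9, 121 and 69.99 in treated males, against 847, 759.9 and 812 in untreated obese males. Treated arrays were all far lower, by 3.01 in log2 (standard error 0.25, limma adjusted p = 6.87e-10), and a dimmer Igfals probe set below 23 in both groups gave -0.20. Wfdc21, a small secreted protein, had 191, 422, 464 and 485 in treated males, against 4747, 3580 and 2966 in untreated obese males, and fell by 3.25 (limma adjusted p = 5.85e-08). Tmem176a, a membrane protein, fell by 2.19 (limma adjusted p = 0.000517). Cck, the gene of cholecystokinin, had 3.51, 2.97, 5.70 and 4.71 in treated males, against 14.6, 213 and 196 in untreated obese males. Its call (-2.20, limma adjusted p = 0.00413) was lost without untreated array 2 or 3. Gadd45b, a stress-induced gene, fell by 1.38 on both of its probe sets (limma adjusted p = 0.0186 and 0.00846), and Sod3, the extracellular superoxide dismutase, by 1.30 (limma adjusted p = 0.0427). The call of Sod3 held in 10 of 21 alternatives, with -1.98 on later and -0.64 on earlier arrays, and was lost without untreated array 2 or 3 or treated array 1, 2 or 4. The Gadd45b call at 0.0186 held in 12 of 21 and was lost without untreated array 1 or 2 or treated array 3 or 4.

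Lean males place these changes beside the difference between untreated obese and lean males. Untreated obese and lean males differed in 230 probe sets (1.85%), and treated obese and lean males in 524 (4.22%); both comparisons share arrays with that of the drug, so values are given side by side and no overlap is counted. Pdk4, Ephx2, Cidea and Ucp1 were higher in treated than in lean males, by 3.88, 2.90, 1.89 and 2.32 in log2 (limma adjusted p = 1.15e-08, 4.95e-08, 0.000707 and 0.00439). None of the 4 was called between untreated obese and lean males, where they differed by 0.28, -0.23, -0.47 and 0.14. Reep6, a membrane protein of the endoplasmic reticulum, was lower in untreated obese than in lean males (-1.63, limma adjusted p = 0.000151). It rose by 1.55 under the drug (limma adjusted p = 0.000517) and stood at -0.08 against lean males (limma adjusted p = 0.981). Ces1d was likewise lower in untreated obese than in lean males (-1.32, limma adjusted p = 0.00524) and at -0.24 in treated against lean males (limma adjusted p = 0.851). Reep6 was chosen after its values were seen. Slc2a4 was lower than in lean males both with the drug (-0.90, limma adjusted p = 0.0411) and without it (-1.78, limma adjusted p = 0.000148).

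The lower genes differed in how they stood against lean males. Saa3, Ccl7 and S100a8 were higher in untreated obese than in lean males, by 2.79, 2.94 and 1.67 (limma adjusted p = 5.1e-05, 2.15e-06 and 4.54e-05). In treated against lean males they differed by -0.58, 0.31 and -0.57, and none was called. Ccl2 differed by 0.93 in treated against lean males (limma adjusted p = 0.0745) and by 2.90 in untreated obese against lean males (limma adjusted p = 5.54e-07). Lrg1 and Wfdc21 were above lean males in untreated obese males, by 1.43 and 1.24 (limma adjusted p = 0.0342 and 0.0389), and below them in treated males, at -1.96 and -2.01 (limma adjusted p = 0.000255 and 2.95e-05). Serpina3n and Igfals gave 0.16 and 0.05 in untreated obese against lean males, which was not called, and -2.80 and -2.95 in treated against lean males (limma adjusted p = 1.09e-11 and 8.87e-11). Cd68 and Mmp12 were higher than in lean males in both, by 2.24 and 4.09 with the drug (limma adjusted p = 1.24e-06 and 3.11e-07) and by 2.46 and 4.30 without it (limma adjusted p = 2.15e-06 and 1.97e-06). Of the 34 macrophage markers, 11 were higher and 1 lower in treated against lean males, and 16 were higher in untreated obese against lean males. Of all probe sets, 4.22% and 1.85% were called in these comparisons, in either direction.

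**Figure D4:**
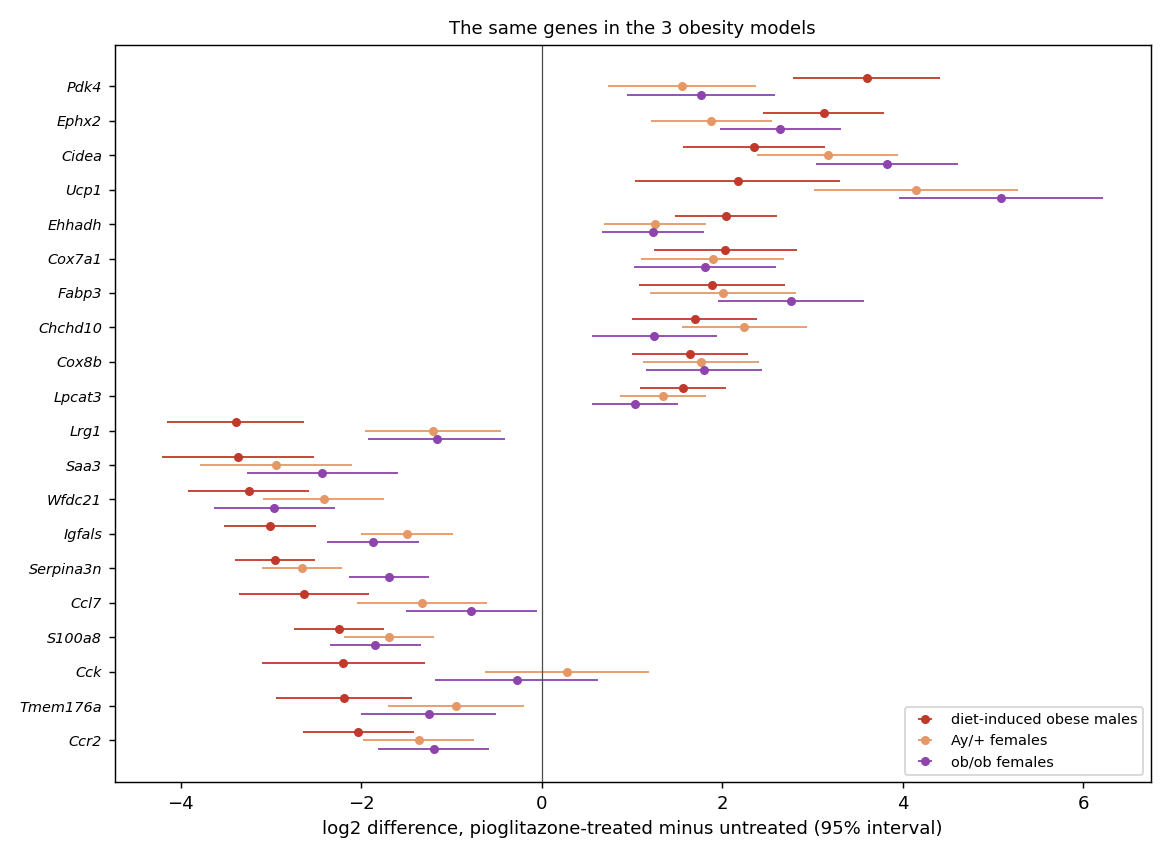
Log2 difference of pioglitazone-treated minus untreated arrays, with its 95% interval, for the same 20 genes in diet-induced obese males, Ay/+ females and ob/ob females. All 10 risen genes are above 0 in the 3 models, and of the 10 fallen genes only Cck does not point down in Ay/+ females; no difference between models was called for these genes.

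The same drug given to obese females, measured on other arrays, gave calls in the same direction for part of these genes. The comparisons in males and females share an estimate of spread per probe set, so their calls are not fully independent. All treated ob/ob arrays came from the same scan day, which held no untreated ob/ob array, so drug and scan day cannot be told apart there. All treated females were on earlier arrays, while array 1 of untreated Ay/+ and array 4 of untreated ob/ob females were later. Of the 94 probe sets higher in treated obese males, 68 were also called higher in treated Ay/+ females, which is 68 of the 264 (2.13%) called higher there. In ob/ob females 42 of the 94 were called higher, of 91 (0.733%) called there. Of the 82 lower probe sets, 28 were called lower in Ay/+ females, of 113 (0.91%), and 18 in ob/ob females, of 41 (0.33%). None was called in the opposite direction. The median log2 differences of the 94 were 1.06 in Ay/+ and 0.81 in ob/ob females, and those of the 82 were -0.70 and -0.53.

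Ucp1 and Cidea had larger differences in females, and Pdk4 and Lrg1 in males, yet none of these differences of effect was called. Ucp1 differed by 4.15 in Ay/+ and 5.09 in ob/ob females and Cidea by 3.17 and 3.82, against 2.17 and 2.36 in diet-induced obese males. For Ucp1 the effect in males minus that in females was -1.98 for Ay/+ and -2.92 for ob/ob (limma adjusted p = 0.532 and 0.801). Pdk4 gave 3.60 in males, 1.56 in Ay/+ and 1.77 in ob/ob females, differences of effect of 2.05 and 1.84 (limma adjusted p = 0.321 and 0.95). Lrg1 gave -3.39 in males, -1.20 in Ay/+ and -1.16 in ob/ob females, a difference of -2.18 and -2.23 (limma adjusted p = 0.232 and 0.482). Cck, called in males, gave 0.28 in Ay/+ and -0.28 in ob/ob females, with limma adjusted p = 0.281 and 0.95 for the differences of effect. H2-Eb1 and H2-Aa were called lower in ob/ob females too (-1.58 and -1.78, limma adjusted p = 0.014 and 0.000803), and Ccl2 in Ay/+ females (-1.63, limma adjusted p = 0.00196).

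Over all probe sets, no difference of effect between diet-induced obese males and Ay/+ females was called by limma (0%), where 966 had an unadjusted p below 0.05. The count was 6 without untreated Ay/+ array 1, 3 without treated Ay/+ array 1 and 28 with array weights. Between diet-induced obese males and ob/ob females 1 probe set was called (0.00805%), with 633 at an unadjusted p below 0.05. It is 92537_g_at, to which the annotation used here gives no single gene symbol. Its signal was 1340 to 1835 in treated and 1472 to 1708 in untreated obese males, and 1061 to 1887 in treated and 119.6 to 458 in untreated ob/ob females. The drug effect was thus 0.02 in males and 2.20 in ob/ob females, a difference of -2.18 (95% interval -2.98 to -1.39, limma adjusted p = 0.0359). No probe set was called when any 1 of the 7 arrays of diet-induced obese males was left out. The models differ in sex as well as in the origin of obesity, and these cannot be told apart. In ob/ob females the drug effect also cannot be told apart from scan day.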

How the data were processed

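Perigonadal adipose RNA from 35 samples in 10 groups had been hybridised to 1-colour Affymetrix mouse arrays. The deposited values are MAS5 signal intensities, 1 per probe set on a linear scale, per the submitters' processing notes; 13 arrays, here called later, had been scaled by the authors to a common trimmed mean and 22, called earlier, had not, as the values and the form of the experiment files show. Signals were rescaled so that the 2% trimmed mean of every array was 250, then 23 was added and log2 taken. Of 12488 probe sets, 66 controls were left out; of the 12422 tested, 10833 have 1 gene symbol, 396 several and 1193 none. Group means over all 35 arrays were fitted in limma 3.58.1 under R 4.3.3 with a mean-variance trend, and p-values were Benjamini-Hochberg adjusted over all probe sets tested. The small number of arrays limits precision. The procedure was tested on simulated data.

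Named genes were the 10 highest and 10 lowest called genes with separated arrays and a group mean of at least 2 times the added value, up to 4 called members of each of 42 gene lists (2 where none was called), and a set of PPAR gamma and inflammation genes; further members are named to complete a list's count. The groups, genes and lists were chosen with earlier results of these data known. A gene in a list is represented by its brightest probe set. Alternatives were quantile normalization, added values of 1 and 92, a filter on dim probe sets, a fit without the trend, a fit of only the groups compared, weights per array, batch, scan day and replicate blocks, later or earlier arrays only, and leaving out arrays. Replicate numbers are shared between groups, but deviations of same-numbered samples correlated at -0.298, -0.235 and -0.158, so the numbers do not pair the samples.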

Additional observations from a re-analysis of the deposited data

Results flagged for a closer look

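In 6 genes 1 of the 4 treated arrays of diet-induced obese males lay far from the other 3, as measured by its gap to the nearest array over the range of the group. The ratio was 0.847 for Wfdc21 and 0.879 for Cd36, with array 1 low for Wfdc21 and array 3 low for Cd36. It was 0.841 for Agpat3, 0.922 for Ndufs1, 0.860 for Cat and 0.879 for Pdia6, and array 1 was the highest of the treated arrays for Agpat3, Ndufs1 and Cat and the lowest, at 4.54, for Pdia6. The Gapdh 3′ to 5′ ratio of treated array 1 gave 0.995. Chance gives such a gap in about 1 in 20 groups, and 7 of 108 groups examined had one.

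The pioglitazone effect on probe set 92537_g_at differed between diet-induced obese males and ob/ob females by -2.18 in log2 (limma adjusted p = 0.0359). Treated and untreated diet-induced obese males averaged 1646 ± 215 (SD, n = 4) and 1619 ± 128 (SD, n = 3), while treated and untreated ob/ob females averaged 1413 ± 426.5 (SD, n = 3) and 314 ± 157 (SD, n = 4), with limma as the test.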

How the results depend on the processing

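Between 158 and 228 were called with quantile normalization, added values of 1 and 92, the filter on dim probe sets, no trend, and batch or scan day as a block; the replicate block gave 167. The compared groups alone gave 73 (38 higher, 35 lower), of which 67 were among the 176, and array weights gave 570 (253 higher, 317 lower), which included all 176. Later arrays alone gave 69 (29 higher, 40 lower) and earlier arrays alone 59 (34 higher, 25 lower), with fewer samples. Leaving out treated array 1 and 3 female arrays of doubted quality gave 352 (190 higher, 162 lower). Leaving out treated array 1 and untreated array 1, an alternative chosen after seeing the data, gave 101 (49 higher, 52 lower), with 5 thermogenic, 4 peroxisomal, 2 fatty acid oxidation, 2 TCA cycle and 10 oxidative phosphorylation members higher and 3 MHC class II members lower. Leaving out 1 array at a time gave 111 to 160 calls, 62 to 90 higher and 42 to 72 lower; the fewest higher were without untreated array 1 and the fewest lower without untreated array 2, and without untreated array 3 there were 52 lower.

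Untreated obese against lean males, with 230 calls, gave 632 with array weights, 69 on later arrays, 497 without the 4 doubted arrays and 117 to 181 with 1 array left out. Treated obese against lean males, with 524 calls, gave 1252 with array weights, 318 on later and 271 on earlier arrays, and 910 without the 4 doubted arrays. The difference of effect from Ay/+ females, with 0 calls, gave 28 with array weights, 17 without the 4 doubted arrays, 1 without treated array 1 and untreated array 1, and 0 to 6 with 1 array left out. That from ob/ob females, with 1 call, gave 2 with an added value of 92 and 19 with array weights. It gave 0 with no trend, the compared groups only, batch or scan day as a block, earlier arrays only, or without treated array 1 and untreated array 1, and 0 to 3 with 1 array left out. These differences could not be fitted on later arrays only. Except where fewer arrays entered, the cause of these shifts was not tested. Signals near 23 limit what dim genes such as Ucp1, Fabp3, Cck and Cxcl10 can show.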
